A study of Mus musculus with 6 samples.

Results

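The chemokine genes described here were Ccl2, Ccl5, Ccl7, Ccl8, Ccl9, Cxcl1, Cxcl5, Cxcl10, Cxcl12 and Cx3cl1, 10 of the 54752 genes in the count table. They were chosen by name, including genes with low counts, at a time when results of these same libraries were known, so their levels and fold changes are given as a description and not as a test of chemokines as a class. The libraries were made from the mouse embryonic fibroblast line NIH/3T3 after 72 h of treatment, with 2 libraries in each of 3 groups. The first group received PBS and is called vehicle. The second, TGF-β1+DMSO, received TGF-β1 at 1 ng/ml together with DMSO. The third, TGF-β1+BI6727, received the same TGF-β1 with BI6727 at 5 μM, also known as volasertib, an inhibitor of the mitotic kinase PLK1. No library had DMSO without TGF-β1, so the effects of TGF-β1 and of DMSO cannot be told apart in any comparison with vehicle. The labels name no DMSO for TGF-β1+BI6727, so the TGF-β1 groups may differ in DMSO as well as in BI6727. All 6 libraries come from a single immortalized line, and nothing in the labels says that the replicates were separate cultures, so p-values measure the spread between these libraries, which may be technical.

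Chemokines are small secreted proteins that bind heparan sulfate on cell surfaces and direct the movement of leukocytes through G protein-coupled receptors. They are classed by the spacing of the first cysteines of the mature protein as CC, CXC or CX3C. In fibroblasts many of them are switched on by NF-κB after inflammatory signals and some, such as Cxcl10, by interferons, while TGF-β1 is known both as a profibrotic signal and as a restraint on inflammatory genes.

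The coding stretches around those cysteines are shown because they define the families by which the genes are described. They were read from the longest coding sequence of each gene in the Gencode M21 transcripts (mm10, 5′ to 3′), and the codons of the first cysteine pair are in capitals. The pair lay side by side in 5 genes, had 1 codon between in 4, and had 3 codons between in Cx3cl1.
Ccl2: gccccactcaccTGCTGCtactcattc
Ccl7: aatgcatccacaTGCTGCtatgtcaag
Ccl8: gctccagtcaccTGCTGCtttcatgta
Ccl5: gacaccactcccTGCTGCtttgcctac
Ccl9: gactcttcagatTGCTGCctgtcctat
Cxcl5: acggagctgcgtTGTgttTGCttaaccgta
Cxcl1: aatgagctgcgcTGTcagTGCctgcagacc
Cxcl12: ctgagctaccgaTGCcccTGCcggttcttc
Cxcl10: aggacggtccgcTGCaacTGCatccatatc
Cx3cl1: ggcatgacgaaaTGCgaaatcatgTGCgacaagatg

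The genes lie in known clusters of the mouse genome (mm10). On chromosome 11, Ccl2 (chr11:82035571-82037453, + strand), Ccl7 (chr11:82045712-82047525, +) and Ccl8 (chr11:82115185-82116799, +) belong to a run of 6 chemokine genes over 270.1 kb. Ccl5 (chr11:83525778-83530518, − strand) and Ccl9 (chr11:83572919-83578636, −) belong to another run, of 5 genes over 138.9 kb. On chromosome 5, Cxcl5 (chr5:90759360-90761624, +) and Cxcl1 (chr5:90891241-90893115, +) lie in a run of 7 genes over 146.6 kb, and Cxcl10 (chr5:92346638-92348889, −) lies with Cxcl9 and Cxcl11 in 44.1 kb. Cx3cl1 (chr8:94772009-94782427, +) lies with Ccl22 and Ccl17 in 66.4 kb, and Cxcl12 (chr6:117168535-117181367, +) had no other listed chemokine within 500 kb.

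Promoter windows, from 250 bases before to 50 after the start site, were at hand for 6 of the 10 genes (RefSeq, GRCm38.p6). The kappaB motif, bound by NF-κB, was searched on both strands as GGG, any 3 bases and TTCC, or GGG, any 2 bases and TTCCC, and the forms can overlap. It was present in 3 of these 6 windows (Cxcl1, Cxcl10, Ccl9) and in 6.8% of all 32851 windows. The interferon-stimulated response element, searched on both strands as GAAA, any 2 bases and GAAA, was present in 1 of 6 (Cxcl10) and in 3.44% of all windows. The AP-1 motif TGANTCA, on both strands, was present in 2 of 6 (Cxcl10, Ccl9) and in 7.81% of all. The Smad motif CAGACA, also on both strands, was in 0 of 6 and in 21% of all, and TATAAA on the sense strand was in 3 of 6 (Ccl8, Ccl9, Cx3cl1) and in 8.32% of all. Such matches describe letters in a window and do not show that a factor bound there.

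**Figure D1:**
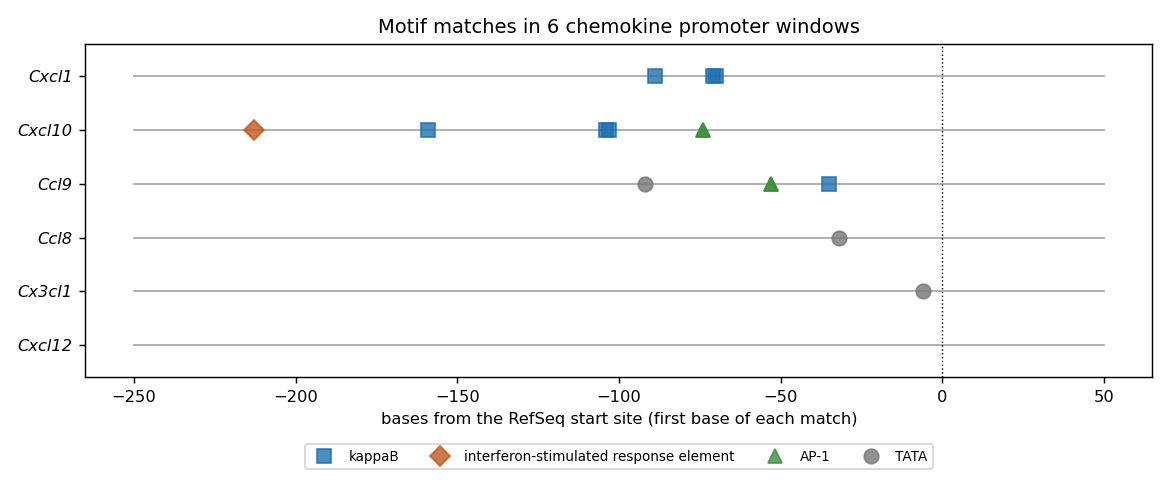
Motif matches in the promoter windows of 6 chemokine genes. The x axis is the distance in bases of the first base of each match from the RefSeq start site, each row is a gene, and symbols mark kappaB, interferon-stimulated response element, AP-1 and TATA matches. Cxcl10 carries an interferon-stimulated response element at 213 bases and kappaB matches at 159, 104 and 103 bases before the start site, and Cxcl12 carries none of the motifs.

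The upstream 250 bases of Cxcl1 (chr5:90890995-90891244, +) and Cxcl10 (chr5:92348890-92349139, −) are shown because both hold several kappaB matches while the genes' estimates for TGF-β1+DMSO against vehicle had opposite signs. Capitals mark kappaB matches and, first in Cxcl10, the interferon-stimulated response element.
Cxcl1: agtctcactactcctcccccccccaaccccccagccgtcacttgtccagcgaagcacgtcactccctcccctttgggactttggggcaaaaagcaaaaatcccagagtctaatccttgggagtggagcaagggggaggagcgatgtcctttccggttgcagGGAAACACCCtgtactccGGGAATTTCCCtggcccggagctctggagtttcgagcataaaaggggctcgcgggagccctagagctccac
Cxcl10: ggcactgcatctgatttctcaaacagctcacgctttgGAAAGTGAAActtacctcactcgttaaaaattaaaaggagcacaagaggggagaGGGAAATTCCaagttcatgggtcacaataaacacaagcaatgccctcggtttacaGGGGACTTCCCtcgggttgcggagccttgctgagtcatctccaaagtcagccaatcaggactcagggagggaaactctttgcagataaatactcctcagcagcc

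The libraries held 18362378 to 24452153 counts on genes, and 17936 genes with at least 10 counts in total were compared in a single edgeR fit. Levels are given as normalized CPM, counts divided by a library's TMM-scaled total and put on a common scale, and fold changes as log2 values with standard errors (SE). Called genes are those with a fold change above 2 and an adjusted p below 0.01 in edgeR's quasi-likelihood test (Benjamini-Hochberg adjustment). All 10 chemokines passed the filter on low counts, whereas the stricter filter of the study's methods, 10 CPM in more than 3 libraries, kept 6 and dropped Ccl5, Ccl9, Cxcl10 and Cx3cl1. Of 9 fibroblast markers, all were detected in every library, with Vim and Col1a2 the most abundant in vehicle. Like several chemokines, 2 of the 9 (Dcn, log2 fold change -1.96, and Pdgfra, -1.86) were called lower with TGF-β1+DMSO than with vehicle. This held for 2.72% of all genes. With TGF-β1+BI6727 against vehicle, 4 were called lower (with Col1a2, -1.03, and Pdgfrb, -1.18), beside 3.13% of all genes. Without either vehicle library the first count was 1 (Dcn), and the second was 1 or 2 without a vehicle or a TGF-β1+BI6727 library. Their summed level was 8325 and 7972 normalized CPM in vehicle, 8072 and 6983 in TGF-β1+DMSO, and 6449 and 6351 in TGF-β1+BI6727, and its part in the chemokine results was not tested. Acta2, Ccn2 and Smad7, which are known to respond to TGF-β1, were called higher in each TGF-β1 group than in vehicle. The TGF-β1+DMSO libraries stood further apart from each other than the other pairs did. Over genes, the log2 difference between the replicates had an SD of 0.38 in that group, 0.16 in vehicle and 0.15 in TGF-β1+BI6727, so the calls that rest on that group are also given without each of its libraries. In bulk RNA, fewer expressing cells and less RNA per cell cannot be told apart.

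In vehicle the fibroblasts expressed a chemokine mixture dominated by Ccl2, Ccl7 and Cxcl5. Genes were compared by the level per kb of exon. The length used was that of all annotated exons, from 511 bases for Ccl8 to 8176 for Cxcl12. Where a shorter transcript is expressed, this understates the level, so the ranking of genes is approximate. The level per kb was 700.1 ± 23.5 normalized CPM (SD, n = 2) for Ccl2, 380.4 ± 25.0 for Ccl7 and 230.3 ± 55.3 for Cxcl5. Ccl8 (49.8 ± 12.7) and Cxcl1 (48.7 ± 16.7) came next, and the libraries of these neighbours overlapped. Cxcl12 at 6.33 ± 1.55, Ccl5 at 3.59 ± 0.851 and Cx3cl1 at 2.63 ± 0.408 followed, and Ccl9 at 2.12 ± 0.178 and Cxcl10 at 1.95 ± 0.194 overlapped at the bottom. In TGF-β1+DMSO, Ccl2 at 310.0 ± 47.8 and Ccl7 at 99.5 ± 8.94 per kb held the top ranks, Ccl8 at 24.9 ± 4.42 passed Cxcl5 at 15.9 ± 0.209, and Ccl5 at 12.9 ± 0.236 overlapped with Cxcl1 at 11.6 ± 2.65. In TGF-β1+BI6727, Ccl2 was at 183.6 ± 9.64, Ccl7 at 58.5 ± 10.1 and Ccl8 at 11.6 ± 2.48 per kb, and Cxcl10 was lowest at 0.634 ± 0.207. The order below Ccl2 and Ccl7 therefore differed between the groups.

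**Figure D2:**
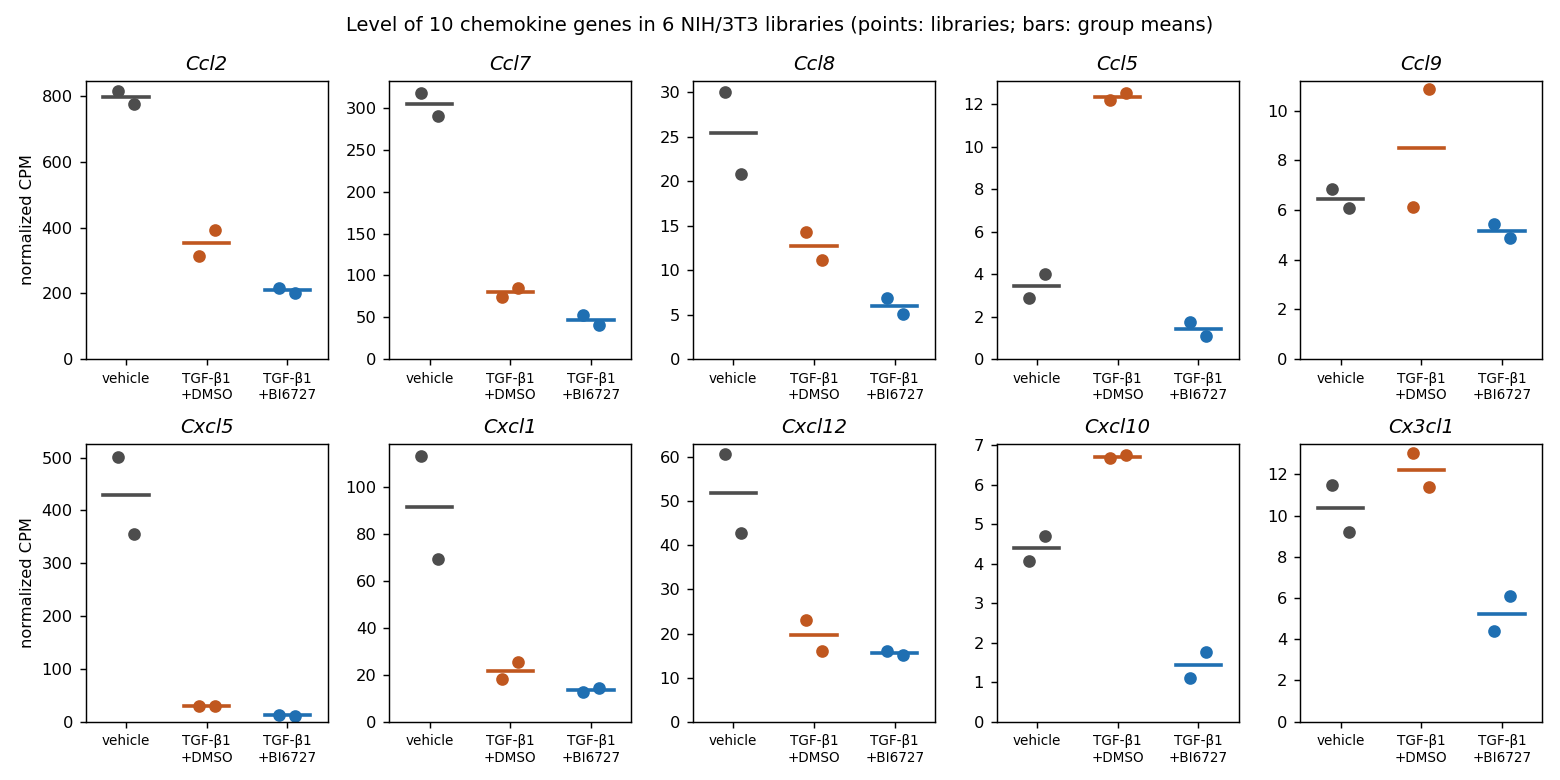
Level of the 10 chemokine genes by library. Each panel is a gene, with normalized CPM on a linear y axis from 0, points for libraries and horizontal bars for the means of 2 libraries. Ccl2, Ccl7, Ccl8, Cxcl5, Cxcl1 and Cxcl12 were highest in vehicle, while Ccl5 and Cxcl10 were highest in TGF-β1+DMSO. Cx3cl1 and Ccl9 also had their highest mean in TGF-β1+DMSO, with libraries that overlapped those of vehicle.

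Ccl2 and Ccl7, the monocyte-attracting ligands of the receptor CCR2, fell with TGF-β1+DMSO. Ccl2 measured 815.6 and 777.8 normalized CPM in the vehicle libraries, 314.3 and 391.3 in TGF-β1+DMSO, and 216.7 and 201.1 in TGF-β1+BI6727. The 3 groups did not overlap and stood in the order vehicle, TGF-β1+DMSO, TGF-β1+BI6727. The log2 fold change of Ccl2 was -1.18 (SE 0.13) for TGF-β1+DMSO against vehicle, which was called, and -0.76 (SE 0.13) for TGF-β1+BI6727 against TGF-β1+DMSO, which was not. Ccl7 measured 318.9 and 290.5 normalized CPM in vehicle, 74.7 and 84.8 in TGF-β1+DMSO, and 52.6 and 41.2 in TGF-β1+BI6727, again in 3 groups without overlap. Its log2 fold change against vehicle was -1.93 (SE 0.14) with TGF-β1+DMSO and -2.70 (SE 0.15) with TGF-β1+BI6727, both called. Between the TGF-β1 groups the log2 fold change of Ccl7 was -0.77 (SE 0.14) and was not called.

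Ccl8, the neighbour of Ccl2 and Ccl7 and in mice a ligand of CCR8, had the same order of groups at a lower level. It measured 30.0 and 20.8 normalized CPM in vehicle, 14.3 and 11.1 in TGF-β1+DMSO, and 6.81 and 5.03 in TGF-β1+BI6727. No group overlapped another. The log2 fold change of Ccl8 was -0.996 (SE 0.23) for TGF-β1+DMSO against vehicle, just under the 2-fold limit, and -1.12 (SE 0.24) for TGF-β1+BI6727 against TGF-β1+DMSO, and neither was called. The first of these was -1.19 and called without DMSO replicate 1, and -0.81 and not called without DMSO replicate 2. Against vehicle, TGF-β1+BI6727 gave -2.11 (SE 0.24), which was called.

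Cxcl5 and Cxcl1, neutrophil-attracting ligands of CXCR2, fell in both comparisons with vehicle. Cxcl5 measured 501.9 and 356.2 normalized CPM in vehicle, 29.4 and 29.9 in TGF-β1+DMSO, and 11.9 and 11.7 in TGF-β1+BI6727. It was 14.5-fold lower with TGF-β1+DMSO than with vehicle (log2 fold change -3.85, SE 0.17) and 36.3-fold lower with TGF-β1+BI6727 (-5.18, SE 0.19), and both differences were called. In those comparisons with vehicle, these were the largest differences among the 10 genes. Between the TGF-β1 groups Cxcl5 had a log2 fold change of -1.33 (SE 0.17), not called, although the libraries of each group lay close together and the groups were apart.

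Cxcl1, which carries the kappaB matches printed above, measured 113.4 and 69.2 normalized CPM in vehicle, 18.3 and 25.3 in TGF-β1+DMSO, and 12.5 and 14.4 in TGF-β1+BI6727. The vehicle libraries differed from each other by more than the TGF-β1 groups differed in mean. The log2 fold change of Cxcl1 was -2.07 (SE 0.24) for TGF-β1+DMSO and -2.76 (SE 0.25) for TGF-β1+BI6727 against vehicle, both called, and -0.69 (SE 0.25) between the TGF-β1 groups, not called.

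Cxcl12, the homeostatic ligand of CXCR4 that stromal cells secrete, was lower in both TGF-β1 groups than in vehicle and, of the 10 genes, had the smallest difference between them. It measured 60.8 and 42.8 normalized CPM in vehicle, 23.1 and 16.1 in TGF-β1+DMSO, and 16.1 and 15.1 in TGF-β1+BI6727. The log2 fold change was -1.40 (SE 0.21) and -1.73 (SE 0.21) against vehicle, both called. Cxcl12 was the only member of the 10 whose TGF-β1+BI6727 and TGF-β1+DMSO libraries overlapped, with a log2 fold change of -0.33 (SE 0.22), and without DMSO replicate 1 that value was -0.047.

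Ccl5 and Cxcl10 had another pattern, with their highest level in TGF-β1+DMSO and no overlap between groups. Cx3cl1 and Ccl9, described below, also had their highest mean in TGF-β1+DMSO, but with libraries that overlapped those of vehicle. Ccl5, which attracts T cells and monocytes, had 57 and 90 counts in vehicle, 256 and 265 in TGF-β1+DMSO, and 32 and 26 in TGF-β1+BI6727. These were 2.87 and 4.03 normalized CPM in vehicle, 12.2 and 12.5 in TGF-β1+DMSO, and 1.76 and 1.06 in TGF-β1+BI6727. Ccl5 was thus 3.57-fold higher with TGF-β1+DMSO than with vehicle (log2 fold change 1.83, SE 0.26) and 8.91-fold lower with TGF-β1+BI6727 than with TGF-β1+DMSO (-3.16, SE 0.29), and both were called. Its TGF-β1+BI6727 libraries also lay below vehicle, with a log2 fold change of -1.32 (SE 0.30) that was not called.

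Cxcl10, the interferon-inducible ligand of CXCR3 on T cells, had 81 and 105 counts in vehicle, 140 and 143 in TGF-β1+DMSO, and 20 and 43 in TGF-β1+BI6727. On the normalized scale it measured 4.08 and 4.70 CPM in vehicle, 6.67 and 6.75 in TGF-β1+DMSO, and 1.10 and 1.76 in TGF-β1+BI6727. No groups overlapped. The log2 fold change of Cxcl10 was 0.61 (SE 0.25) for TGF-β1+DMSO against vehicle, not called, and -2.20 (SE 0.28) for TGF-β1+BI6727 against TGF-β1+DMSO, a 4.6-fold difference that was not called either. Against vehicle, TGF-β1+BI6727 gave -1.59 (SE 0.28), which was called. Art3, on the opposite strand, overlaps 5.91% of the exonic length of Cxcl10. The strand setting of the counting is not given in the sources used here, so how reads from that stretch were counted is not known.

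Cx3cl1, or fractalkine, a membrane-bound chemokine that is shed as a soluble form and binds CX3CR1, measured 11.5 and 9.21 normalized CPM in vehicle, 13.1 and 11.4 in TGF-β1+DMSO, and 4.40 and 6.09 in TGF-β1+BI6727. The vehicle and TGF-β1+DMSO libraries overlapped, and the TGF-β1+BI6727 libraries lay below both. The log2 fold change of Cx3cl1 was 0.24 (SE 0.21) for TGF-β1+DMSO against vehicle, -1.21 (SE 0.22) for TGF-β1+BI6727 against TGF-β1+DMSO and -0.97 (SE 0.22) for TGF-β1+BI6727 against vehicle, and none was called. Ccl9, a ligand of CCR1, varied least between the groups. It measured 6.85 and 6.08 normalized CPM in vehicle, 6.14 and 10.9 in TGF-β1+DMSO, and 5.44 and 4.86 in TGF-β1+BI6727. Its log2 fold change of 0.40 (SE 0.27) for TGF-β1+DMSO against vehicle rested on DMSO replicate 2, without which it was -0.055.

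Counted together for TGF-β1+DMSO against vehicle, 1 of the 10 genes was called higher (Ccl5) and 5 lower (Ccl2, Ccl7, Cxcl1, Cxcl5, Cxcl12). Of all genes tested, 2.3% were called higher and 2.72% lower. In 6 of the 10 both TGF-β1+DMSO libraries lay below both vehicle libraries, against 29.1% of all genes, and in 2 both lay above, against 27.3%. The median log2 fold change was -1.09 over the 10 genes and -0.001 over all genes tested. At an unadjusted p below 0.05 in edgeR's quasi-likelihood test 2 of the 10 were higher and 6 lower, against 15.2% and 15.4% of all genes, and DESeq2 called 1 higher and 5 lower, against 2.63% and 2.84%.

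These calls changed with single libraries. Without DMSO replicate 1, 7 were called, with Ccl8 added, and without DMSO replicate 2 the called genes were the 6 above. The log2 fold changes without DMSO replicate 1 and without DMSO replicate 2 were -1.03 and -1.32 for Ccl2, -1.85 and -2.01 for Ccl7, -1.86 and -2.30 for Cxcl1, -3.85 and -3.85 for Cxcl5, and -1.69 and -1.15 for Cxcl12. Without vehicle replicate 1, 3 were called (Ccl7, Cxcl1, Cxcl5), and without vehicle replicate 2, 5 were called, so that Ccl5, the gene called higher, lost its call without either vehicle library. Cxcl12 also lost its call without either TGF-β1+BI6727 library and with only the 2 groups compared.

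For TGF-β1+BI6727 against TGF-β1+DMSO, the estimate was below 0 for 10 of the 10 genes, and in 9 of them both libraries of the first group lay below both of the second. The latter held for 17.4% of all genes tested. The median log2 fold change was -0.94 over the 10 genes and -0.003 over all genes. Only Ccl5 was called lower, and 0 were called higher. Of all genes tested, 0.0112% were called lower, which were Ccl5 and Pde1b, and 0% were called higher. At an unadjusted p below 0.05 in edgeR's quasi-likelihood test, 9 of the 10 chemokines were lower and 0 higher, against 4.2% and 2.36% of all genes (754 and 424 genes). DESeq2 called 4 of the 10 lower (Ccl5, Cxcl5, Cxcl10, Cx3cl1) and 0 higher, against 0.0836% and 0% of all genes.

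The number called in that comparison turned on single libraries. Without DMSO replicate 1 there were 5 (Ccl5, Ccl9, Cxcl5, Cxcl10, Cx3cl1), and without DMSO replicate 2 there were also 5, with Ccl8 in place of Ccl9. Without either vehicle library or either TGF-β1+BI6727 library there were 0. Without DMSO replicate 1 they were -3.18 for Ccl5, -2.21 for Cxcl10, -1.34 for Cxcl5 and -1.10 for Cx3cl1, and without DMSO replicate 2 they were -3.16, -2.21, -1.34 and -1.32. The values for Ccl2 were -0.91 and -0.61, those for Ccl7 -0.86 and -0.70, those for Ccl8 -0.93 and -1.32, and those for Cxcl1 -0.90 and -0.46. With 1 library left in the group, that library is assumed to vary like those of the other groups.

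For TGF-β1+BI6727 against vehicle, 7 of the 10 were called lower (Ccl2, Ccl7, Ccl8, Cxcl1, Cxcl5, Cxcl10, Cxcl12) and 0 higher. Of all genes tested, 3.13% were called lower and 2.05% higher. At an unadjusted p below 0.05 in edgeR's quasi-likelihood test 9 of the 10 were lower and 0 higher, against 16% and 14.6% of all genes. DESeq2 called 8 lower and 0 higher, against 3.28% and 2.28%. In 10 of the 10 both TGF-β1+BI6727 libraries lay below both vehicle libraries, which held for 32.4% of all genes, and the medians were -1.83 and 0.01. The comparisons with vehicle share the vehicle libraries, and their values for a gene are not independent of each other. Without vehicle replicate 1, or without TGF-β1+BI6727 replicate 2, 4 were called (Ccl2, Ccl7, Cxcl1, Cxcl5).

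**Figure D3:**
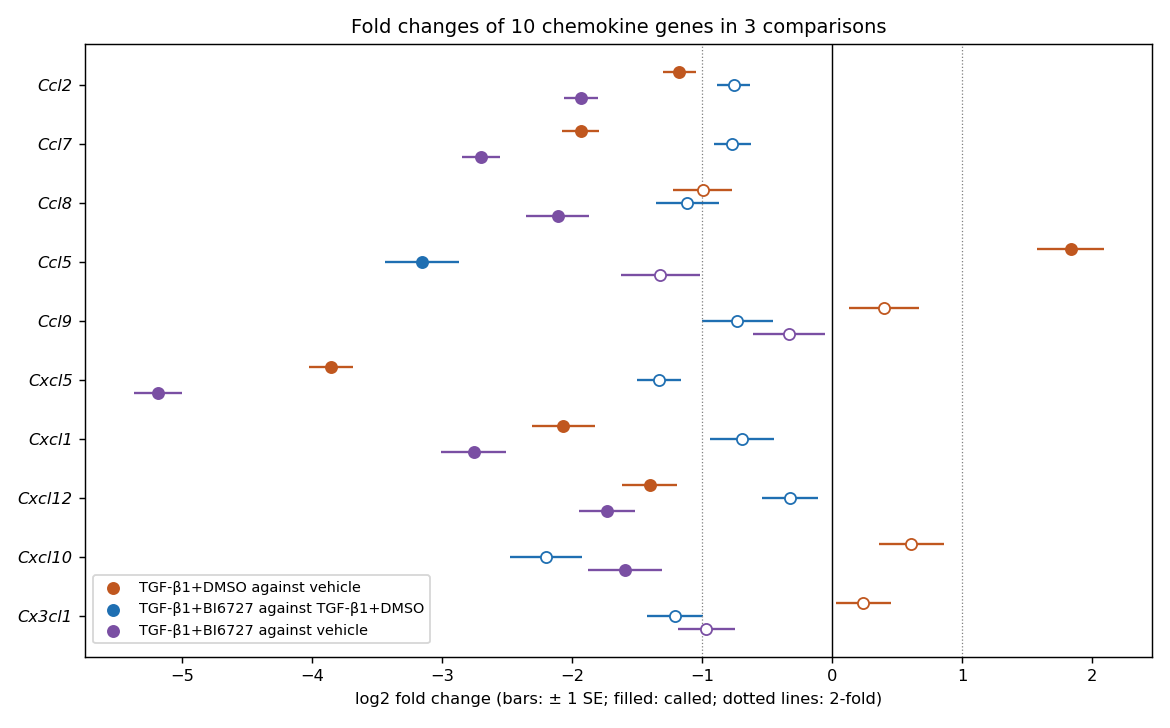
Log2 fold changes of the 10 chemokine genes in 3 comparisons. Points are estimates of the edgeR fit on the log2 x axis, bars are ± 1 SE, filled points were called and dotted lines mark a 2-fold difference. Every estimate for TGF-β1+BI6727 against TGF-β1+DMSO lies below 0, from -0.33 for Cxcl12 to -3.16 for Ccl5.

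The summed level of the 10 genes followed Ccl2, Ccl7 and Cxcl5. The sum was 1866 and 1581 normalized CPM in the vehicle libraries, 512.1 and 600.1 in TGF-β1+DMSO, and 329.3 and 302.3 in TGF-β1+BI6727. The groups did not overlap. Of the summed level of all 38 chemokine genes listed, the 10 made up 99.3% in vehicle, 97.6% in TGF-β1+DMSO and 95.6% in TGF-β1+BI6727. Cxcl5 made up 24.5 ± 3.10% (SD, n = 2) of it in vehicle, 5.23 ± 0.532% in TGF-β1+DMSO and 3.58 ± 0.181% in TGF-β1+BI6727. Ccl2 made up 46.1 ± 3.79%, 61.8 ± 2.46% and 63.3 ± 0.789%. These are shares of counts, which also depend on the length of each gene.

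**Figure D4:**
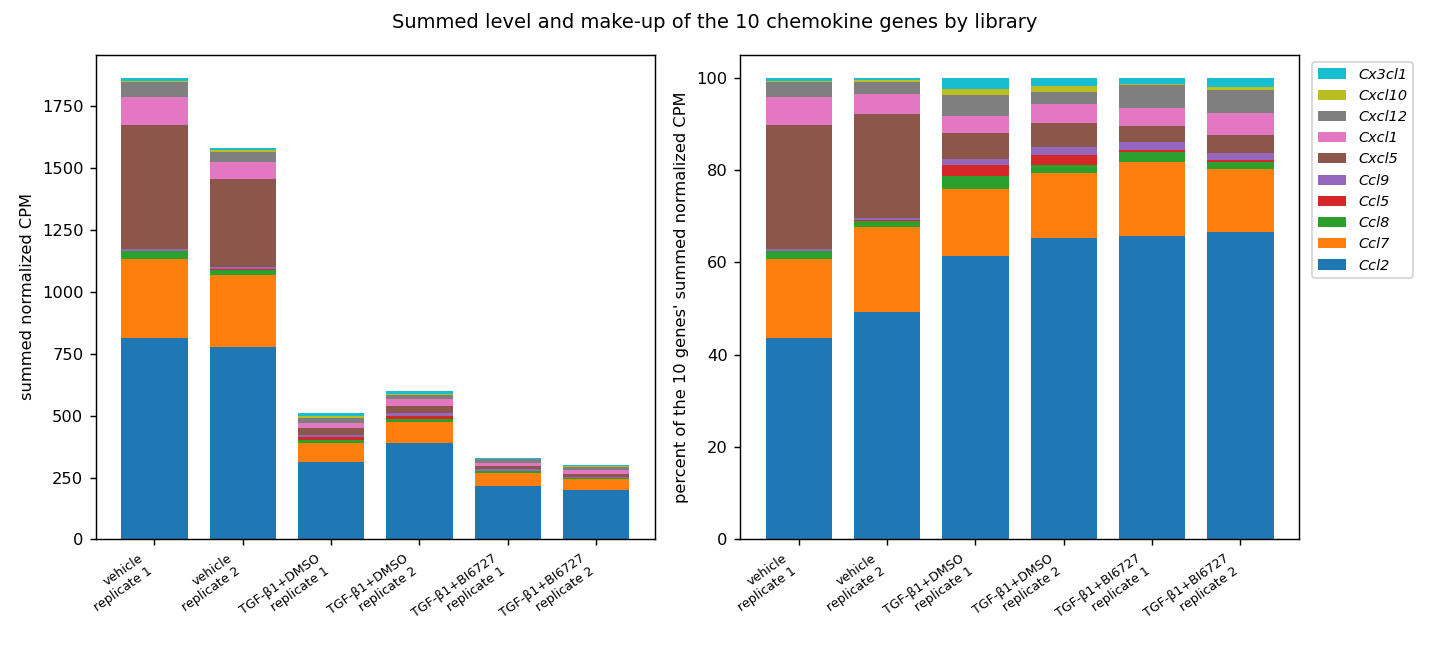
Summed level and make-up of the 10 chemokine genes in each of 6 libraries. Bars stack the normalized CPM of each gene on the left and its percent of the 10 genes' sum on the right. The vehicle bars reach 1866 and 1581 normalized CPM and the TGF-β1+BI6727 bars 329.3 and 302.3, and the part of Cxcl5 is largest in vehicle.

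Most other chemokines were at or near 0 counts, with Ccl25 as an exception. Of 28 further chemokine genes, 13 had no count in any of the 6 libraries, which allows up to 3 counts in each, or 0.165 normalized CPM in the library with the highest limit. Another 7 were too low to be tested, and of the 8 tested, 0 were called in any comparison by edgeR's quasi-likelihood test or by DESeq2. At an unadjusted p below 0.05, Ccl27a was higher with TGF-β1+DMSO than with vehicle and Ppbp was lower with TGF-β1+BI6727 than with vehicle. Ccl25, known from thymus and gut, had the most counts of them, with 133 and 161 in vehicle, 139 and 228 in TGF-β1+DMSO, and 212 and 219 in TGF-β1+BI6727. Elavl1, on the opposite strand, overlaps 2.74% of the exonic length of Ccl25, and its part in these counts was not tested. Ccl27a, known from skin, had 28 to 73 counts. The neighbours of the described genes in their clusters were low too, and Cxcl2, Cxcl9 and Cxcl11, which lie beside Cxcl1 and Cxcl10, had at most 4 counts in a library.

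The receptors for these ligands were hardly detected in the same cells. Of 18 chemokine receptors, 8 had no count in any library, 5 could be tested, and 0 were called in any comparison by either tool. At an unadjusted p below 0.05 in edgeR's quasi-likelihood test, 1 (Cxcr6) was higher with TGF-β1+DMSO and 2 (Cxcr6, Xcr1) with TGF-β1+BI6727 than with vehicle. Of all genes, 15.2% and 14.6% were higher in those comparisons. Between the TGF-β1 groups, 0 of the receptors differed at that p. Cxcr6 had 2 and 2 counts in vehicle, 11 and 20 in TGF-β1+DMSO, and 17 and 23 in TGF-β1+BI6727. Ccr1, the receptor of Ccl9 and Ccl5, had 4 to 16 counts. The exception on the receiving side was Ackr3, an atypical receptor that takes up Cxcl12, with 43.0 and 38.8 normalized CPM in vehicle, 50.3 and 62.5 in TGF-β1+DMSO, and 49.0 and 54.7 in TGF-β1+BI6727. It was not called in any comparison, and at an unadjusted p below 0.05 in edgeR's quasi-likelihood test it was higher in each TGF-β1 group than in vehicle.

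Of 6 proteases that cleave chemokines, Adam10 and Adam17, which shed Cx3cl1, and Mmp2 and Mmp14, which trim CC and CXC chemokines, were abundant, with 908 to 11801 counts in a library. Of these 4, 0 were called in any comparison by edgeR or DESeq2, although at an unadjusted p below 0.05 in edgeR's quasi-likelihood test all 4 were lower in each TGF-β1 group than in vehicle, beside the 15.4% and 16% of all genes given above. Adam17 was under the threshold on adjusted p in both of these comparisons (edgeR, 0.00506 and 0.00833) but not past the 2-fold limit. Mmp9, a gelatinase, was called higher with TGF-β1+BI6727 than with vehicle (log2 fold change 1.47). It measured 5.29 and 6.04 normalized CPM in vehicle, 9.67 and 6.47 in TGF-β1+DMSO, and 12.4 and 18.9 in TGF-β1+BI6727. Dpp4, which trims Ccl5 and Cxcl10, had at most 2 counts in a library.

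Genes of the NF-κB pathway and of the interferon response were described as the routes known to switch on chemokine genes. All 18 NF-κB pathway genes listed were tested. Traf1 (log2 fold change 4.33) and Il6 (1.5) were called higher and Vcam1 (-2.26) lower with TGF-β1+DMSO than with vehicle. Of all genes, 2.3% were called higher and 2.72% lower. At an unadjusted p below 0.05 in edgeR's quasi-likelihood test, 5 were higher and 3 lower, beside 15.2% and 15.4% of all genes. With TGF-β1+BI6727 against vehicle, 9 were higher and 3 lower at that p, beside 14.6% and 16% of all genes. With 2 and 1 counts in the vehicle libraries, Traf1 lay below the floor of 3 counts there, so its value depends on the prior count. Between TGF-β1+BI6727 and TGF-β1+DMSO, 0 of the 18 were called by either tool. At an unadjusted p below 0.05 in edgeR's quasi-likelihood test, 2 (Vcam1, Il6) were lower and 0 higher, beside 4.2% and 2.36% of all genes. Of these 18 estimates, 9 lay above and 9 below 0, with a median of 0.002, and 0 were called without either DMSO replicate, with medians of 0.036 and -0.025. Vcam1, an adhesion molecule for leukocytes, measured 56.7 and 54.0 normalized CPM in vehicle, 10.9 and 12.2 in TGF-β1+DMSO, and 7.58 and 6.82 in TGF-β1+BI6727, the same order of groups as Ccl2 and Ccl7. Nfkbia, which encodes an NF-κB inhibitor, stayed between 102.8 and 121.5 normalized CPM in the 6 libraries. Others of the list differed more between TGF-β1+DMSO and vehicle, such as Nfkbib (log2 fold change 0.73) and Nfkb1 (-0.62), neither called. These are mRNA levels, and the activity of NF-κB and its part in the chemokine results were not tested.

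Of 16 interferon response genes, 15 were tested. With TGF-β1+DMSO against vehicle, the genes called included Isg15 (log2 fold change 2.33) and Ifit1 (1.22), which were higher, and Gbp2 (-2.00), which was lower. Isg15 measured 6.95 and 7.47 normalized CPM in vehicle, 27.5 and 44.9 in TGF-β1+DMSO, and 14.1 and 13.6 in TGF-β1+BI6727. Ifit1 measured 14.3 and 20.7 in vehicle, 44.1 and 37.4 in TGF-β1+DMSO, and 12.1 and 14.3 in TGF-β1+BI6727. As for Ccl5 and Cxcl10, the middle group was the highest. Between TGF-β1+BI6727 and TGF-β1+DMSO, 15 of 15 estimates lay below 0, and in 12 of them the groups did not overlap, beside the 17.4% given above for all genes. The median was -1.26, or -1.01 over the 14 genes with a mean of at least 10 counts a library, against -0.004 over all such genes. None of the 15 was called by edgeR's quasi-likelihood test, in which 7 were lower and 0 higher at an unadjusted p below 0.05, beside 4.2% and 2.36% of all genes. DESeq2 called 2 lower (Isg15, Ifit1), beside 0.0836% of all genes. Without DMSO replicate 1 or without DMSO replicate 2, 3 of the 15 were called lower, Isg15 and Ifit1 both times, and the medians were -0.84 and -0.74. Ifnb1, the interferon-β gene itself, had at most 4 counts in a library.

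**Figure D5:**
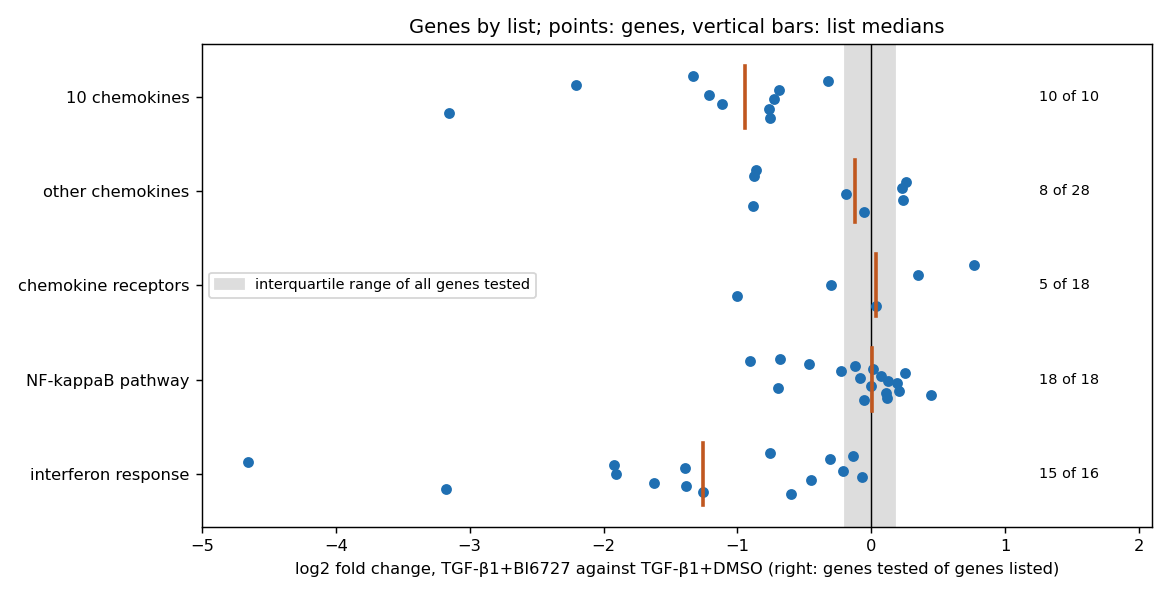
Log2 fold changes for TGF-β1+BI6727 against TGF-β1+DMSO in 5 gene lists. Points are genes on the log2 x axis, vertical bars are list medians, the grey band is the interquartile range of all genes tested and the numbers on the right give genes tested of genes listed. The medians are -0.94 for the 10 chemokines, -1.26 for the interferon response genes and 0.002 for the NF-κB pathway genes.

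Markers of other cell types were counted in the same libraries. Of 10 macrophage and leukocyte markers, Cd3e and Adgre1 had no count in any library, Ptprc had at most 9, and the summed level ranged from 25.5 to 27.2 normalized CPM in vehicle, 22.9 to 23.7 in TGF-β1+DMSO and 21.8 to 24.2 in TGF-β1+BI6727. Cd14, which fibroblasts also express, made up most of that sum. Epithelial markers summed to at most 0.604 normalized CPM in a library. Of 5 endothelial markers, 1 had no count in any library, and the summed level was 6.23 ± 1.69 normalized CPM in vehicle, 14.9 ± 4.38 in TGF-β1+DMSO and 10.4 ± 0.294 in TGF-β1+BI6727 (SD, n = 2). Vwf, which made up most of it, measured 4.73 and 6.53 in vehicle, 14.3 and 8.97 in TGF-β1+DMSO, and 8.19 and 7.97 in TGF-β1+BI6727. With all 6 libraries, 0 endothelial markers were called in any comparison by edgeR's quasi-likelihood test, while with TGF-β1+DMSO against vehicle 3 (Vwf, Cdh5, Pecam1) were higher at an unadjusted p below 0.05 and DESeq2 called 2 (Vwf, Cdh5), as edgeR did without DMSO replicate 2 or with no filter. Of all genes, 15.2% were higher at that p in this comparison, and DESeq2 called 2.63% higher. The part of the markers of other cell types in the chemokine results was not tested.

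The genes most like each chemokine over the 6 libraries were named by Pearson's r of log2 CPM, among genes that varied at least as much as a set share of the chemokine's SD. The libraries share group and depth, so these are descriptions without a p-value. Cxcl10 was most like Irf7 (r = 0.984, Spearman's rho = 0.943), an interferon-induced transcription factor with 108 counts in all. Ccl7 and Cxcl5 both had Vcam1 among their 3 nearest genes (r = 0.997 for each, rho = 1.00). Over 6 libraries a rho of 1.00 is not particular to Vcam1. It was reached by 27 of the 5046 genes compared with Ccl7 and by 9 of the 1772 compared with Cxcl5. Ccl7 was nearest to Ptn (r = 0.999, rho = 1.00), Cxcl5 to Nlrc3 (r = 0.999, rho = 0.943), Cxcl1 to Enpp2 (r = 0.998, rho = 1.00) and Cxcl12 to Fzd1 (r = 0.997, rho = 0.943). Ccl5 was less closely matched by any gene, the nearest being Bspry (r = 0.960, rho = 0.886), which had 32 counts in all.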

How the data were processed

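RNA-seq of 6 NIH/3T3 libraries was analysed from the table of raw counts per gene that the authors deposited. According to the paper's methods and the submitters' processing notes, reads were aligned to mm10 with Subread 1.6.4 and counted on Gencode M20 genes with featureCounts, and the notes also name DESeq2 1.22.2 and R 3.6.1. The strand setting is not given in the sources used here. The 8 empty columns of the table were ignored, and 29 gene identifiers had no symbol. From the counts, edgeR 4.0.16 in R 4.3.3 was used (TMM scaling, glmQLFit and glmQLFTest, all libraries fitted together with 3 residual degrees of freedom, prior count 1 for log2 CPM), with adjustment over all genes tested. An SE is the log2 fold change over the root of its F statistic. The test was also run on simulated counts with the same dispersion in all groups. That setting does not cover the wider spread of the TGF-β1+DMSO libraries. The study's filter was an alternative, because it drops low chemokines. The floor of 3 counts covers counting error only.

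The members and gene lists were chosen with earlier results of these data known. Named were the 10 members, members of other lists that were called or had at least 10 counts in every library (at most 8 a list), and the 3 genes most like each chemokine with an SD of at least 0.5 of its own. A few other genes, such as Pde1b, Cxcr6, Dpp4 and Ifnb1, were named after their values were seen. Some genes that the rule selects are left out of the text. Alternatives were DESeq2 1.42.0 and its size factors, other filters, only the 2 groups compared, a replicate block, offsets for gene length (lowess span 0.3), a looser threshold and each replicate left out; the crossed replicate block was added after the data were seen.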

Additional observations from a re-analysis of the deposited data

How the results depend on the processing

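The number of the 10 chemokines called against vehicle was within 1.5 times of the value given under every alternative but those that leave out a library, though the genes differed. For TGF-β1+DMSO against vehicle, the study filter drops Ccl5, only the 2 groups compared loses Cxcl12, and the looser threshold and the length-trend offsets add Ccl8. For TGF-β1+DMSO against vehicle, 6 were called, with 3 to 7 when each replicate was left out in turn (3 without vehicle replicate 1). For TGF-β1+BI6727 against vehicle, 7 were called, with 4 to 8 when each was left out (4 without vehicle replicate 1 and 4 without TGF-β1+BI6727 replicate 2). For TGF-β1+BI6727 against TGF-β1+DMSO, 1 was called, and 4 with DESeq2, 5 with no filter, 3 with length-trend offsets, and 0 with the study filter, with filterByExpr or with only the 2 groups compared; the range was 0 to 5 when each replicate was left out. The study filter removes Ccl5, and the cause of the other differences was not tested. Ccl9 had a log2 fold change of 0.40 for TGF-β1+DMSO against vehicle, 0.749 without DMSO replicate 1 and -0.055 without DMSO replicate 2; no other chemokine changed direction.

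Replicate numbers did not pair the libraries: deviations of same-numbered libraries correlated across genes with r = -0.11 (vehicle and TGF-β1+DMSO), -0.25 (TGF-β1+DMSO and TGF-β1+BI6727) and 0.045 (vehicle and TGF-β1+BI6727). With the replicate block, 6, 0 and 7 chemokines were called in the order DMSO against vehicle, BI6727 against DMSO and BI6727 against vehicle, and with the numbers crossed 6, 1 and 7.

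Over all genes, 413 higher and 488 lower for TGF-β1+DMSO against vehicle became 244 and 241 with the study filter, and 143 and 162 without vehicle replicate 1. For TGF-β1+BI6727 against vehicle, 367 and 562 became 223 and 282, and 142 and 215. The looser threshold, adjusted p below 0.05 without a minimum fold, gave 1371 and 1509, and 1379 and 1691. Between the TGF-β1 groups, 0 higher and 2 lower became 0 and 15 with DESeq2, 6 and 41 with no filter, 0 and 12 with length-trend offsets, 0 and 4 with the crossed block, 61 and 31 without DMSO replicate 1, 4 and 38 without DMSO replicate 2, and 0 and 0 with the study filter, filterByExpr, the replicate block, only the 2 groups compared or any other library left out. Depth limits Cxcl10, Ccl5, Ccl9 and Cx3cl1 most, which had at most 274 counts in a library.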

Other observations

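Low counts were more often even than odd. Among genes with 1 to 20 counts in a library, 58.5% to 59.9% of counts were even, whereas among genes over 1000 counts 49.0% to 50.7% were. These ranges are over the 6 libraries. Among the chemokines with counts of at most 20 in some library, Cxcl2 had 2, 0, 4, 2, 3 and 0 counts and Ccl11 had 12, 4, 2, 0, 0 and 2 counts in the order vehicle, TGF-β1+DMSO, TGF-β1+BI6727. The cause was not tested.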
